A study of Bos taurus with 13 samples.

Results

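A set of 74 genes, out of 16595 in the deposited table, had low transcript levels in bovine mesenchymal stem cells after 6 h of heat and levels close to control after 3 days of heat and after recovery from the 6 h. The set was chosen from the measured values, so the differences that define it are a description and carry no test. All values are on the log2(value + 1) scale unless a level is named, where the value is the authors' normalised read count. A gene was taken when the difference of group means between 6 h of heat and its control was at most -1. The difference between 3 days of heat and its control had to be under 0.4 in size, and that between recovery and the 3-day control under 0.5 in size. The mean value over the 13 libraries had to be from 50 to under 20000. The deposited table gives Ensembl identifiers only, and 0 of the 16595 matched an entry of the gene name table used here. The genes therefore have no names in what follows, and 4 of them are given by identifier.

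Mesenchymal stem cells are adherent stromal cells that can form bone, cartilage and fat cells. Here they were primary cultures from umbilical cord of Bos taurus, at early passages, in low glucose medium with serum. Heating to 40.5 °C began a day after the cells were seeded. The ShortHS group was at 40.5 °C for 6 h (n = 3), and its control ShortNT was at 37 °C for 6 h (n = 3). The LongHS group was at 40.5 °C for 3 days (n = 3), and its control LongNT was at 37 °C for 3 days (n = 2). The ShortHS_Recovery group had 6 h at 40.5 °C followed by 66 h back at 37 °C (n = 2), and LongNT served as its control too. The design set immediate effects of heat on transcript levels beside stable and delayed ones. The 3-day groups also had more time in culture than the 6 h groups. The labels do not say whether replicates came from separate animals, so p-values measure only the spread between these samples. No marker of the cell type or of other cell types could be looked up without gene names.

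Heat makes proteins unfold and activates heat shock factors, which induce chaperone genes. In the same hours transcription of many other genes is reduced in mammalian cells, and transcripts that turn over quickly can then fall. When cells return to their normal temperature, or adapt to a moderate one, much of this early response fades. The 74 genes were those whose low level was present at 6 h and not at the later times, as far as the limits above define it.

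Over the 74 genes, the level in ShortHS was from 19.3% to 50.1% of that in ShortNT, with a median of 44.5%. In bulk RNA, fewer cells of a type and less RNA per cell cannot be told apart. The difference ran from -2.37 to -1.0016, with a median of -1.15. Many of the genes lay near the limit: for 41 it was above -1.2, and for 24 above -1.1. It was from above -1.5 to -1.2 for 21 genes and from above -2 to -1.5 for 10, and it was at most -2 for the remaining 2. The 3 genes nearest the limit inside the set had differences of -1.0016, -1.0040 and -1.0060, and the 3 nearest outside had -0.9991, -0.9967 and -0.9918. A little variation would thus move genes across that limit.

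The deepest difference belonged to a gene of middle abundance. Its values were 526, 478 and 469 in replicates 1 to 3 of ShortNT, and 106, 93.2 and 84.4 in those of ShortHS. The heated libraries were far below the controls, with no overlap, and the mean was 19.3% of the control. At 3 days its values were 388 and 409 in LongNT, 478 and 421 in ShortHS_Recovery, and 308, 305 and 328 in LongHS. Recovery lay above the 3-day control, while continued heat lay below it in each library (difference -0.34). The next deepest gene had values of 95.7, 94.9 and 113 in ShortNT and 26.2, 21.4 and 24.0 in ShortHS. Its 3-day values overlapped across groups, at 103 and 80.8 in LongNT, 108 and 56.1 in ShortHS_Recovery and 103, 112 and 95.5 in LongHS.

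The set spanned low and high abundance. Mean values over the 13 libraries ran from 50.3 to 13293, with a median of 240, against a median of 480 over the 13684 genes tested. Of the 74 genes, 11 had a mean under 100, 42 from 100 to under 500, 11 from 500 to under 1000, and 10 of 1000 or more. Across the genes, the 6 h difference and the log2 mean value correlated weakly (Pearson r 0.18, Spearman rho 0.18, n = 74 genes that share the same libraries). The most abundant gene had values of 13162, 14614 and 13444 in ShortNT and 4763, 4494 and 6599 in ShortHS. At 3 days it was at 14603 and 18622 in LongNT, 13305 and 15155 in ShortHS_Recovery, and 15530, 14942 and 23575 in LongHS. Its heated 6 h libraries were the lowest of the 13, and the third LongHS library was the highest.

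Together the 74 genes took from 0.324% to 0.338% of all normalised reads in the ShortNT libraries and from 0.138% to 0.144% in the ShortHS libraries. The share was from 0.288% to 0.305% in LongNT, from 0.284% to 0.285% in ShortHS_Recovery and from 0.261% to 0.313% in LongHS. The low share in ShortHS follows from how the genes were chosen. The summed level is weighted towards the most abundant genes, and the third LongHS library, at 0.313%, lay above the other LongHS libraries at 0.266% and 0.261%.

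**Figure D1:**
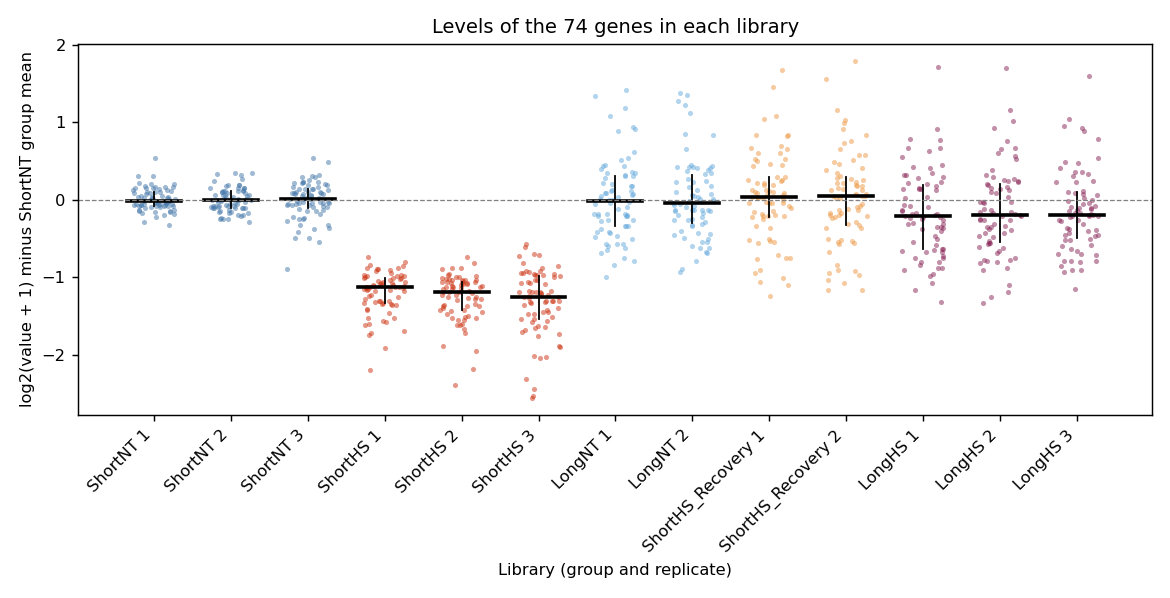
Each point is one of the 74 genes in one library, as log2(value + 1) minus the gene's ShortNT group mean; thick bars are medians and thin bars run from the lower to the upper quartile. The medians of the 3 ShortHS libraries lie between -1.25 and -1.13, while those of the other libraries lie between -0.22 and 0.05.

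Every ShortHS library was below every ShortNT library for 74 of 74 genes, against 22.2% of all tested genes, a count that the rule largely fixes. All 74 were also past the threshold for a lower level in ShortHS (limma adjusted p of 0.05), which 16.7% of all tested genes were. Since the rule used this contrast, nothing is read from either count. Taken by replicate number, the difference was below 0 for all 74 genes in each of the 3 pairs, which the full separation already fixes. It was at most -1 for 56, 58 and 64 genes in replicates 1, 2 and 3, with medians of -1.12, -1.22 and -1.25. These are parts of the difference that the rule used, so they are a description only. The spread was widest in replicate 3, where the difference ran from -2.46 to -0.09.

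Recovered reads per library ranged from 14859428 to 39117065, and a gene of the set had at least 9 reads in each library. Of the 74, 33 had at least 100 reads in every library and 6 had under 20 reads in at least 1 library. Replicate 3 of ShortNT, ShortHS and LongHS was less like replicates 1 and 2 than those were like each other. Over the tested genes, the SD of the log2 difference was from 0.27 to 0.30 between replicates 1 and 2 of a group and from 0.53 to 0.68 between replicate 3 and either of them. The labels do not say what sets it apart, and LongNT and ShortHS_Recovery have no replicate 3. Within ShortHS, 29 of the 74 genes were above their group mean in replicate 3, against 48 in replicate 1 and 39 in replicate 2.

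Replicate 3 allowed 1 reading that the choice of genes had not used. When the same limits were applied to replicates 1 and 2 alone, they chose 75 genes, 58 of them in the set of 74. In the replicate 3 libraries, ShortHS was below ShortNT for 75 of these 75 genes and by at least 1 on the log2 scale for 55 of them (73.3%). Among the 11166 genes in the same range of mean value, 52.5% were below 0 and 3.36% were at most -1. The median difference of the 75 genes was -1.18 in replicates 1 and 2 and -1.17 in replicate 3, against -0.02 for the genes of that range. It ran from -2.46 to -0.21 in replicate 3, and 4 of the 75 were above -0.5. This reading rests on 1 library a group and has no test. It covers only the 6 h difference, because neither LongNT nor ShortHS_Recovery has a replicate 3.

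The 74 genes are a minority of those with low levels at 6 h. In the same range of mean value, 285 genes had a 6 h difference of at most -1. Of these, 198 were also lower after 3 days of heat by 0.4 or more, 9 were higher by 0.4 or more, and 78 were within those limits. The limit for recovery removed 4 of the 78, 3 with a difference of at least 0.5 and 1 of at most -0.5. The 3-day limit cut through a dense region. The genes nearest inside it had sizes of 0.3995, 0.3991 and 0.3991, and the nearest outside 0.409, 0.420 and 0.423. The recovery limit lay in a sparse one, where the nearest inside were 0.468, 0.441 and 0.418 and the nearest outside 0.739, 0.804 and 0.855. After recovery, the 211 other genes had a median difference from LongNT of -0.09, and the 74 genes one of 0.01. The recovery limit was required of the 74 genes and not of the 211, so nothing is read from this contrast. Of the 198 genes lower after 3 days of heat, 170 were within the recovery limit, as were 7 of the 9 higher ones. A recovery difference within that limit was thus not particular to the 74 genes.

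**Figure D2:**
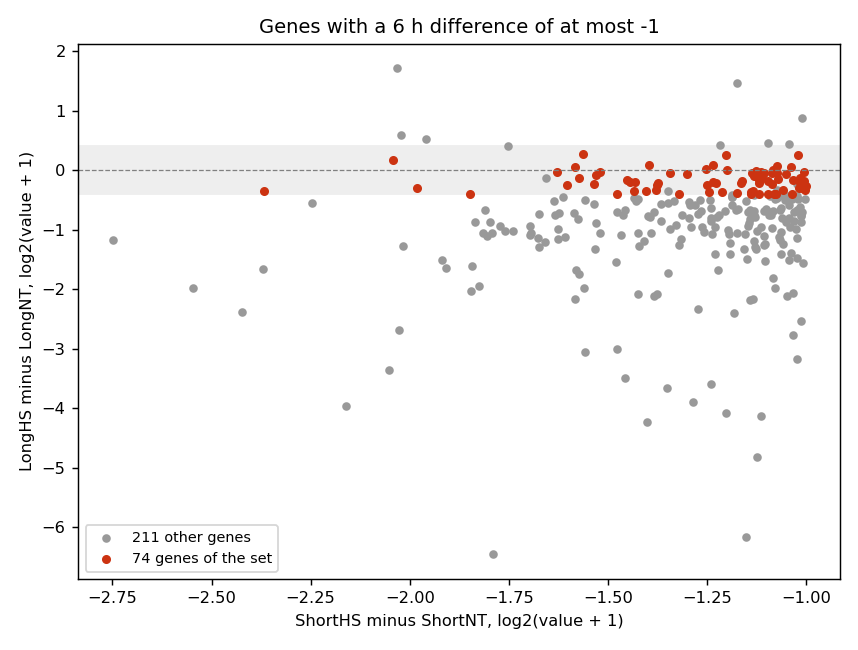
Each point is a gene with a 6 h difference of at most -1, with the 6 h difference (ShortHS minus ShortNT) on the x axis and the 3-day difference (LongHS minus LongNT) on the y axis, both of log2(value + 1); the grey band is the 3-day limit. The 74 genes lie inside the band, while 198 of the 285 genes lie below it and 9 above it.

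After 3 days of heat the 74 genes had not all reached the level of their control. The level in LongHS was from 75.9% to 125% of that in LongNT, with a median of 88.4%, and the difference ran from -0.40 to 0.28 with a median of -0.18. It was below 0 for 62 of the 74 genes (83.8%), while 47.7% of the 6382 genes inside the same limits for 3 days of heat, recovery and mean value were below 0. The rule used this measure, and the 74 genes lie within its limit. Of the 285 genes with low 6 h levels, 198 were lower by 0.4 or more and 9 were higher by 0.4 or more. The 6382 genes were not chosen for a low 6 h level, and nothing is read from the contrast with them. The difference was -0.2 or lower for 34 genes and 0.2 or higher for 3.

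In the fit over all genes, 5 of the 74 were past the threshold for a lower level in LongHS (limma adjusted p of 0.05), against 20.3% of all tested genes, and 0 of the 74 were past it for a higher level, against 20.1%. At an unadjusted p under 0.05, 10 of the 74 were lower and 1 was higher, against 24.7% and 24.5% of all tested genes. On the recovered reads, edgeR called 5 lower and 1 higher (19.5% and 21% of all tested genes), and DESeq2 6 lower and 0 higher (21% and 20.4%). These counts follow from the limit of 0.4 and are not read further. The 5 genes had levels in LongHS between 75.9% and 79.1% of LongNT, and the gene with the deepest 6 h difference was among them. For another of the 5, the values were 1831 and 1876 in LongNT and 1333, 1365 and 1525 in LongHS, with no overlap. At 6 h the same gene was at 1802, 1708 and 2015 in ShortNT and at 871, 825 and 805 in ShortHS. In ShortHS_Recovery it was at 1947 and 1930, above both LongNT libraries. A low level only at 6 h is a description of the set within the limits of the rule. So is the 3-day difference below 0 in 62 of the 74 genes, of which these 5 were past the threshold.

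After recovery the levels were centred on the control. The level in ShortHS_Recovery was from 75.1% to 138% of that in LongNT, with a median of 100.2%. The difference ran from -0.42 to 0.47 with a median of 0.01, and 36 of the 74 genes were below 0, against 50.8% of the 6382 genes inside the same limits. It was under 0.1 in size for 27 genes. At 3 days of heat 22 genes were that near to the control, and 9 were in both comparisons. Both comparisons share the LongNT libraries. In limma 0 of the 74 genes were past the adjusted threshold after recovery, against 0.797% of all tested genes, and 4 had an unadjusted p under 0.05, against 11.1%. On the recovered reads, edgeR called 0 of the 74, against 0.753% of all tested genes, and DESeq2 called 1, which was higher after recovery, against 2.27%. The rule used this measure, so the median and these counts follow from the limit of 0.5 and are not read further. With 2 libraries in LongNT, 2 in ShortHS_Recovery and 3 in LongHS, overlap is a coarse measure. Its counts are not directly comparable between the recovery and the 3-day heat comparison. The libraries of ShortHS_Recovery and LongNT did not overlap for 38 of the 74 genes, against 49.8% of all tested genes, and those of LongHS and LongNT did not overlap for 33 genes, against 65.1%.

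**Figure D3:**
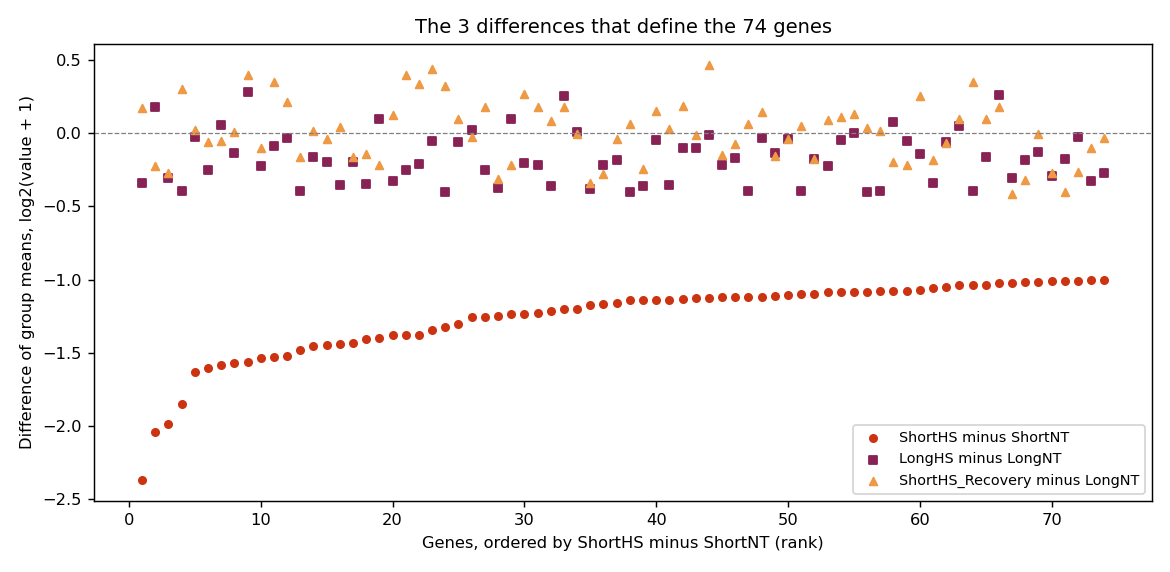
The 3 differences of group means that define the set, on the log2(value + 1) scale, for the 74 genes in order of the 6 h difference. The 6 h differences (circles) run from -2.37 to -1.0016, the 3-day heat differences (squares) lie mostly below 0, and the recovery differences (triangles) lie on both sides of 0.

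Time in culture was the comparison that the rule did not use. LongNT was compared with ShortNT, cells kept at 37 °C for 3 days or for 6 h. This contrast shares ShortNT with the 6 h heat comparison and LongNT with the other comparisons, so values of the genes in it are not wholly free of how they were chosen. Of the 74 genes, 20 (27%) were past the threshold (limma adjusted p of 0.05), against 25.3% of all 13684 tested genes, a share near the background. In LongNT 10 rose, against 11.7% of all tested genes, and 10 fell, against 13.6%. The rises were from 0.35 to 1.39 and the falls from -0.89 to -0.44. Over all 74 genes the median difference was -0.07, against -0.01 for the tested genes.

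The number of calls changed with the libraries in the fit, for the 74 genes and for all genes. Without replicate 1 of LongNT 7 of the 74 genes passed (4 higher and 3 lower), against 6.37% of all tested genes. Without its replicate 2 there were 10 (6 higher and 4 lower), against 16.8%. Without replicate 2 of ShortNT the count was 13, against 20.2%. The higher genes numbered 6 without replicate 1 of ShortNT, against 9.65% of all tested genes, and the lower ones 5 without its replicate 3, against 12%. With only the libraries of the groups compared in the fit the count was also 13, against 12.1%. Within replicates 1 and 2 it was 32 (12 higher and 20 lower), against 43.5% of all tested genes. Another scaling moved the balance of directions in the 74 genes and in the whole table alike. After rescaling to the upper quartile 12 of the 74 were higher and 7 lower, against 1820 and 1527 of all genes. After quantile normalization 9 were higher and 14 lower, against 1460 and 1976.

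**Figure D4:**
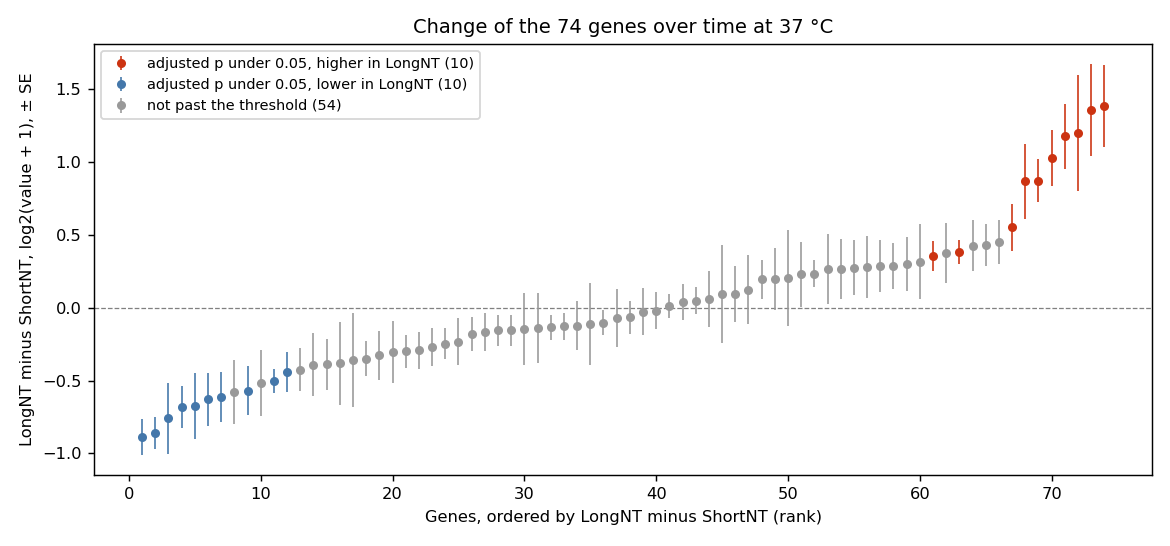
LongNT minus ShortNT on the log2(value + 1) scale for the 74 genes in order of its size, with the standard error from limma as bars. Coloured points are the 10 genes higher and the 10 genes lower in LongNT at an adjusted p under 0.05; the other 54 are grey.

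The largest rise over time was that of ENSBTAG00000017200. Its values were 153, 144 and 249 in ShortNT and 95.5, 84.4 and 77.6 in ShortHS, then 474 and 453 in LongNT. The 3-day controls were above all libraries of the 6 h groups. The log2 difference between LongNT and ShortNT was 1.39 (SE 0.28, limma adjusted p 0.00592), and the call was lost without replicate 1 of LongNT (limma adjusted p 0.0583). In ShortHS_Recovery the values were 565 and 614, and in LongHS 303, 269 and 535. Recovery lay above the 3-day control, and the LongHS libraries lay on both sides of it, replicate 3 being the high one. The other LongHS libraries, at 303 and 269, were below both LongNT libraries. In ShortNT replicate 3 was also the high library, at 249. When the limits were applied without the replicate 3 libraries, this gene was not chosen, so its place in the set depends on them. For this gene the 6 h heat level, 47.1% of its own control, was also below every library of the 3-day groups.

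ENSBTAG00000016857 had the next largest rise. It was at 131, 143 and 88.3 in ShortNT, at 59.8, 49.1 and 51.3 in ShortHS and at 301 and 310 in LongNT. The difference between LongNT and ShortNT was 1.36 (SE 0.32, limma adjusted p 0.0106), and it was no longer past the threshold without replicate 1 or replicate 2 of LongNT (limma adjusted p 0.0737 and 0.0555). The values were 327 and 352 in ShortHS_Recovery and 390, 389 and 172 in LongHS. Here replicate 3 was the low LongHS library, so the small mean difference after 3 days of heat (-0.04) covers libraries far above and far below the control.

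Another kind of pattern was seen in ENSBTAG00000018258, an abundant gene with the largest fall over time. It was at 7823, 7494 and 8475 in ShortNT, at 3111, 2961 and 4034 in ShortHS, and at 3986 and 4587 in LongNT. The 3-day control was thus far below the 6 h control, and it overlapped the heated 6 h libraries. The difference between LongNT and ShortNT was -0.89 (SE 0.12, limma adjusted p 0.000943), and it lay between -0.99 and -0.79 when single libraries were left out, past the threshold each time. In ShortHS_Recovery the values were 3365 and 3536, and in LongHS 3185, 3150 and 3575. Both groups were below LongNT in each library. When the limits were applied without the replicate 3 libraries, this gene was not chosen, so its place in the set depends on them.

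ENSBTAG00000005757 had the next largest fall. It was at 5748, 6056 and 5566 in ShortNT, at 2867, 2727 and 2537 in ShortHS, and at 3349 and 3034 in LongNT. The 6 h controls stood above all the other libraries, which lay between 2537 and 3349. The difference between LongNT and ShortNT was -0.86 (SE 0.11, limma adjusted p 0.000594). The values were 3096 and 2572 in ShortHS_Recovery and 2748, 2544 and 3196 in LongHS, and these overlapped the ShortHS libraries. The level after 6 h of heat was 84.9% of the LongNT level for this gene and 78.6% for the one before it.

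**Figure D5:**
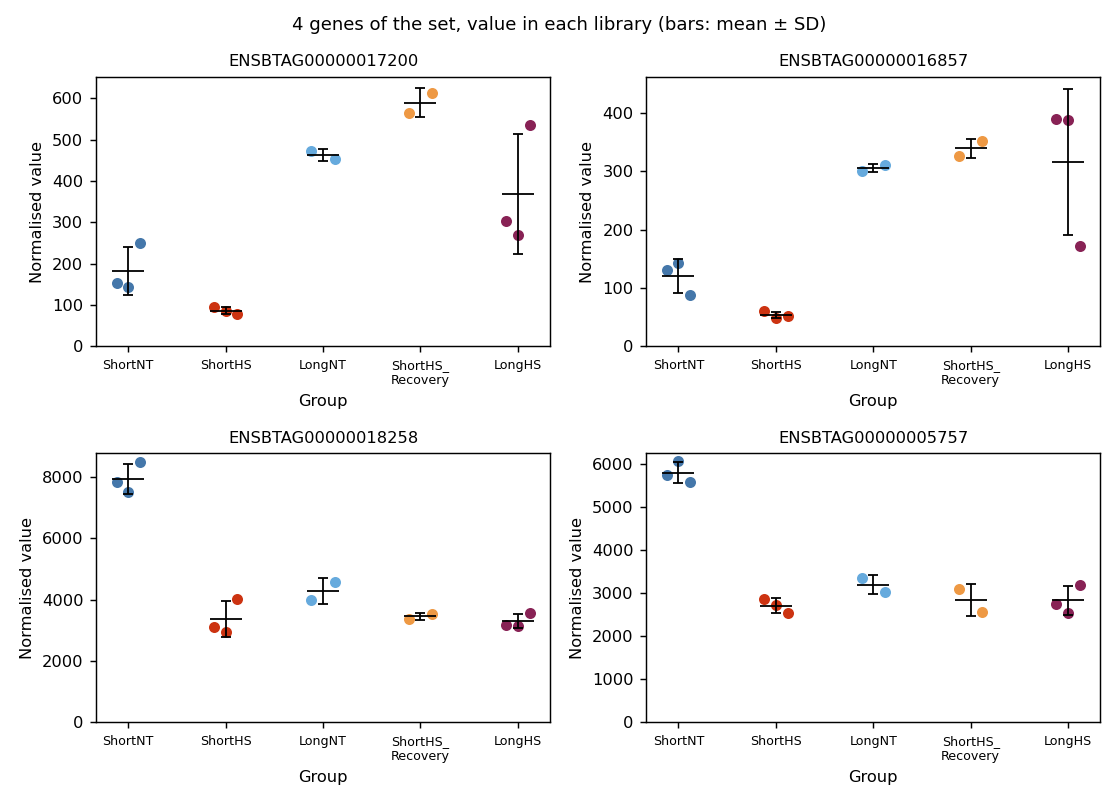
Normalised value of 4 genes in each of the 13 libraries, by group, with bars for the mean ± SD; each y axis starts at 0. In the upper panels the 3-day groups lie above the 6 h control, and in the lower panels the 3 ShortNT libraries stand above all the others.

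Whether the ShortHS level was low against all other conditions therefore differed among the 74 genes. The ShortHS mean was the lowest of the 5 group means for 72 of them. In the remaining 2 the lowest group was LongHS for 1 gene and ShortHS_Recovery for 1. All 3 ShortHS libraries were below each of the 10 other libraries for 63 of the 74 genes, against 7.93% of all tested genes, a count that the rule partly fixes. The 11 others were 6 of the 10 genes that fell over time and 5 genes with no call for time. The level in ShortHS was under 50% of the LongNT level for 49 of the genes, from 50% to under 75% for 20, and 75% or more for 5. By class, its median share of the LongNT level was 19.4% in the 10 genes that rose over time, 43.9% in the 54 with no call and 76.5% in the 10 that fell. This order follows from the change with time itself, since each gene was chosen for a low ShortHS level against ShortNT.

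The group with the highest mean was ShortNT for 31 of the 74 genes, ShortHS_Recovery for 29, LongNT for 10 and LongHS for 4. It was ShortHS for none of the 74. The coefficient of variation, the SD as a share of the mean, had a median of 10.1% in ShortNT and 13.8% in ShortHS (n = 3 each), against 11.5% and 10.6% over the tested genes. The 74 genes were chosen for low ShortHS values and had a lower median value than the tested genes (240 against 480). Whether this accounts for the difference in variation was not tested.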

How the data were processed

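Polyadenylated RNA from 13 bovine cultures was sequenced as mRNA libraries. The authors deposited 1 normalised signal per gene and library. Cutadapt, STAR, HTSeq and DESeq and the build ARS-UCD1.2 are named in the submitters' processing notes; annotation and strand setting are not given in the sources used here. In each library 100% of values were whole multiples of 1 step (within 0.01 reads), so whole reads were recovered. Every deposited gene had at least 6 reads in all.

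Groups and replicate numbers came from the sample titles. These give 66 h of recovery, where the series text gives 3 days. The set was found by its rule on log2(value + 1). Genes with a value of at least 10 in at least 2 libraries (13684, 82.5%) entered a limma model (3.58.1, R 4.3.3) that had a variance trend and 5 group means over 13 libraries (8 residual degrees of freedom). Tests were two-sided with Benjamini-Hochberg adjustment over all tested genes. EdgeR 4.0.16 and DESeq2 1.42.0 on recovered reads were alternatives. On simulated data for LongNT against ShortNT (13684 genes, 200 changed), 85% of genes changed by 1 and 96% of those changed by 2 on the log2 scale were recovered. The simulation used the same setting of spread for all genes and no replicate 3 standing apart. These shares therefore do not measure recovery in the real data.

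The members and the rules were chosen with earlier results of these data known. Genes given by identifier are those with the largest rises and falls between LongNT and ShortNT past the threshold, 2 in each direction; other genes were singled out after their values were seen. Gene lists, cell markers, promoter motifs and gene properties that had been planned could not be used, because no identifier matched a name.

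Same-numbered libraries of ShortNT and ShortHS deviated together from their group means (r from 0.50 to 0.72 across genes, 3 pairs), which meets the criterion of r above 0.1 in every pair. Replicates 1 and 2 crossed gave nearly the same r (0.47 and 0.48), and replicate 3 stood apart in both groups. Whether the r values come from replicate 3 or from pairing by number was not tested. Same-numbered libraries of ShortNT and LongNT gave r of -0.05 and 0.13 and were not paired.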

Additional observations from a re-analysis of the deposited data

How the results depend on the processing

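The rule found from 62 to 75 genes under other pseudocounts and scalings and in replicates 1 and 2, and from 68 to 80 with single libraries left out. Between 58 and 73 of the 74 were found again. None of the 20 genes called for time at 37 °C changed sign under the alternatives run. The count of the 74 called for time was 13 when only the libraries compared were fitted, against 12.1% of all tested genes. In replicates 1 and 2 the count was 32, against 43.5%. It was from 7 to 25 with single libraries left out (4 to 11 higher, 3 to 14 lower). The count of 25, without replicate 3 of ShortHS, stood against 28.7% of all tested genes (13.7% higher, 15% lower). The 10 lower genes became 5 with only the libraries compared, against 6.17% of all tested genes. They became 20 in replicates 1 and 2, against 21.7%. With a term for replicate 3, chosen after seeing the data, they numbered 18, against 18.2%. With the replicate block the lower genes numbered 18, against 18.5% of all tested genes, and the count was 30, against 36.7%. The replicate numbers did not pair these groups, and all 20 genes passed again.

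Over all genes, time called 1655 with only the libraries compared, 5950 in replicates 1 and 2, and from 872 to 3928 with single libraries left out. Heat for 6 h called 7209 with array quality weights and 6107 with the replicate block, and from 3228 to 4559 with single libraries left out. The counts for 3 days of heat were 6748 with array quality weights, 7064 with the replicate block and 7533 in replicates 1 and 2. Heat for 3 days called from 3339 to 6242 with single libraries left out. Recovery called 546 with array quality weights, 311 with DESeq2, 36 without the variance trend, 480 with only the libraries compared, 778 with the replicate block, 1792 in replicates 1 and 2 and 795 with a term for replicate 3. With single libraries left out it called from 1 to 162. Where a group was left with 1 library, that library was assumed to vary like the other groups. The causes of these changes were not tested. The low reads of some genes limit small differences.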
